A study of Homo sapiens with 118 samples.

Results

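The enzymes described here make bile acids from cholesterol, and their transcripts were followed in human liver cells exposed to 8 inhibitors of histone deacetylases. The 10 genes were taken by name, CYP7A1, CYP8B1, CYP27A1, CYP7B1, BAAT, SLC27A5, AKR1D1, HSD3B7, AMACR and ACOX2, and a row of the count table belonged to them when its name, without the number that ends it, was 1 of these symbols. Of 22069 rows with 19470 symbols, 12 rows met this rule, with 2 rows each for CYP27A1 and AKR1D1 and 1 row for each of the other 8 genes. Rows are called features, and each counts the reads of a detector probe pair.

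The cells were HepaRG, an established human hepatic line used after differentiation, when the cultures hold hepatocyte-like and biliary-like cells. All groups are this 1 line, so nothing below speaks for other donors. Chemicals were renewed daily for 72 h, and lysates were profiled with a whole-transcriptome TempO-Seq panel, in which probe pairs that bind side by side on a transcript are ligated, amplified and sequenced. The chemicals were apicidin (0.041722 to 0.86 µM), mocetinostat (0.177222 to 3.9 µM), panobinostat (0.001468 to 0.084 µM), scriptaid (4.94 to 94.5 µM), tacedinaline (1.143333 to 44 µM), trichostatin A (0.018811 to 1.5237 µM), vorinostat (0.404778 to 23.5 µM) and valproic acid. Valproic acid has labels of 100.478 to 3038 but a protocol that gives 0.100478 to 3.038 in the same unit, so its unit is not settled. Each chemical had 5 concentrations, C1 to C5, and 3 batches of HepaRG cells gave replicates 1 to 3, which makes 40 groups and 118 libraries, with panobinostat C3 and trichostatin A C4 lacking replicate 3. Scriptaid, tacedinaline and vorinostat lay on plate E and the other 5 chemicals on plate H. Solvent controls were not used here, so C1 of the same chemical is the reference, and a change that C1 itself had brought about is out of view. Concentrations differ between chemicals, and values of different chemicals are set side by side without a comparison at matched dose.

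Bile acids are made in hepatocytes by 2 routes. The classical route starts with CYP7A1, the rate-limiting 7alpha-hydroxylase of cholesterol. The alternative route starts with the sterol 27-hydroxylase CYP27A1 and goes on through the oxysterol 7alpha-hydroxylase CYP7B1. HSD3B7 and AKR1D1 then change the sterol ring, CYP8B1 adds the 12alpha-hydroxyl group that leads to cholic acid, and AMACR and ACOX2 act in peroxisomes while the side chain is shortened. The product is activated with coenzyme A, for which SLC27A5 is the ligase of recycled bile acids, and BAAT joins it to glycine or taurine.

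RefSeq promoter windows of build GRCh38.p14 were held for 6 of the 10 genes, as 250 bases that end just before an annotated start. Windows of 3 genes are shown because HSD3B7 and CYP27A1 fell in the same 7 chemicals while AKR1D1 moved in both directions. BAAT, which also fell in these 7, had windows inside its annotated gene span, and they are not shown. The windows of SLC27A5 and AMACR are not shown either. Capitals mark matches, on either strand, to AGGTCA, a motif of nuclear receptors, or to GGGCGG, a GC box.
HSD3B7, chr16:30984957-30985206, plus strand: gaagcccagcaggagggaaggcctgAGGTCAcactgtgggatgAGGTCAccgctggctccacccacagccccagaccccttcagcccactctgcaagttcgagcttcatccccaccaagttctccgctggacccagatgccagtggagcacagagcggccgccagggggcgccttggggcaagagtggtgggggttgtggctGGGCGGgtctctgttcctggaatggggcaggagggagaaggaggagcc
CYP27A1, chr2:218781897-218782146, plus strand: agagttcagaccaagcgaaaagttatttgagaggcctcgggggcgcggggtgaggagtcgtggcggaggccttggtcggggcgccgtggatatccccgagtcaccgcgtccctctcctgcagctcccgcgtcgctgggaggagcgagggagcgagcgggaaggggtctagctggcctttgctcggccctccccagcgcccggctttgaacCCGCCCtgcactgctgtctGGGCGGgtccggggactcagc
AKR1D1, chr7:138076209-138076458, plus strand: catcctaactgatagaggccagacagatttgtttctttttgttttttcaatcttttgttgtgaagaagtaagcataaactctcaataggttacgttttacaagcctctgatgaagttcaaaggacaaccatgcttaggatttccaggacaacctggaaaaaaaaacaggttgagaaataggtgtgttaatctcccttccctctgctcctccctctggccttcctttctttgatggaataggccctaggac

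The HSD3B7 window held 2 AGGTCA matches, the first 225 bases before the start, and 1 GGGCGG match 48 bases before it. The CYP27A1 window held 2 GGGCGG matches, the first 40 bases before the start. The AKR1D1 window held neither motif. None of the 3 windows held the TATA box TATAAA, the box CCAAT, the HNF4 motif CAAAGTCCA or the LRH-1 motif CAAGGTCA. Among windows not shown, those of BAAT, SLC27A5 and AMACR held no GGGCGG match. Of BAAT, 1 window held 1 AGGTCA, 1 TATAAA and 2 CCAAT matches, and SLC27A5 and AMACR held 1 CCAAT match each. The 3 windows shown were picked by outcome, and a link between matches and changes was not tested. The LRH-1 motif contains the motif AGGTCA. Of 35116 promoter windows of the same length, 12.1% hold AGGTCA, 42.6% GGGCGG, 10.7% TATAAA, 32% CCAAT, 1.14% CAAGGTCA and 0.325% CAAAGTCCA. These matches are letters in a window and no measure of binding.

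Total counts per library lay between 1061359 and 5250260 (median 3702007), and 10223 to 13492 features per library had at least 5 counts. Depth fell with concentration in some chemicals, from a mean of 3038905 at C1 to 1485592 at C5 in vorinostat. Levels are given in CPM, counts relative to library sizes after TMM scaling over all libraries, and probes differ in efficiency, so levels are compared within a feature only. The label of the cells was checked on 8 hepatocyte markers (ALB, APOA1, TTR, SERPINA1, TF, FGB, AHSG and APOB), whose summed level at C1 was 38592 to 70663 CPM in the libraries of 7 chemicals. In those of trichostatin A the summed level at C1 was 13892 to 57859 CPM. One library stood apart. Replicate 3 of trichostatin A at C1 had 1.79 CPM of CYP7A1 where replicates 1 and 2 had 109 and 101, and 271 CPM of BAAT where they had 1567 and 1295. Its CYP27A1_11888 (134 CPM, against 154 and 149) and CYP7B1 (42.7 CPM, against 34.5 and 31.7) lay near the others. The C5 changes of trichostatin A are therefore given with and without this library.

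At C5 most of the features tested fell in apicidin, mocetinostat, scriptaid, tacedinaline and vorinostat, 5 of 10 fell in panobinostat and in valproic acid, and none was called in trichostatin A. Among the 12, 9 features passed the filter on low counts in all 8 chemicals, ACOX2 in 6, SLC27A5 in 2 and AMACR in 0, which gave 80 tests. A feature could pass this filter through the libraries of 1 concentration alone, C1 or another, so the counts describe the features tested and not the 12 features as a whole. A change was called when the edgeR adjusted p was under 0.05 and the fold at least 1.5. At C5 the members had 7 falling calls of 10 tests in apicidin, where 15% of all features tested were called falling, 10 of 11 in mocetinostat (15.7% of all features) and 7 of 10 in scriptaid (17% of all features). In tacedinaline 9 of 9 were called falling (20.1% of all features), and in vorinostat 8 of 9 (24.9% of all features). In panobinostat 9.46% of all features were called falling, against the 5 of 10 members, and 1 member rose. In valproic acid 6.22% of all features were called falling. In trichostatin A 0 of 11 were called with edgeR, against 0.0154% of all features called falling, and with DESeq2 the count was also 0, while 4 of 11 had an unadjusted p under 0.05, as did 9.66% of all features.

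The median log2 change of the members tested at C5 was -3.27 in vorinostat, -2.97 in tacedinaline, -2.66 in mocetinostat, -2.54 in scriptaid and -2.38 in apicidin. Panobinostat had -0.95, valproic acid -0.75 and trichostatin A -0.38. The median over all features tested lay between -0.0018 and 0.084. Summed over chemicals, 1 of 80 tests was called falling and 1 rising at C2, where 0.0206% and 0.0659% of all tests were called. At C3 there were 23 falling calls and 0 rising (3.16% and 2.82% of all tests). At C4 there were 38 and 1 (8.14% and 7.85% of all tests), and at C5 51 and 1 (13.4% and 11.6% of all tests). By the slope on log2 concentration, called the trend, 48 of 80 tests fell and 2 rose, with 12.7% of all tests falling and 12.7% rising.

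**Figure D1:**
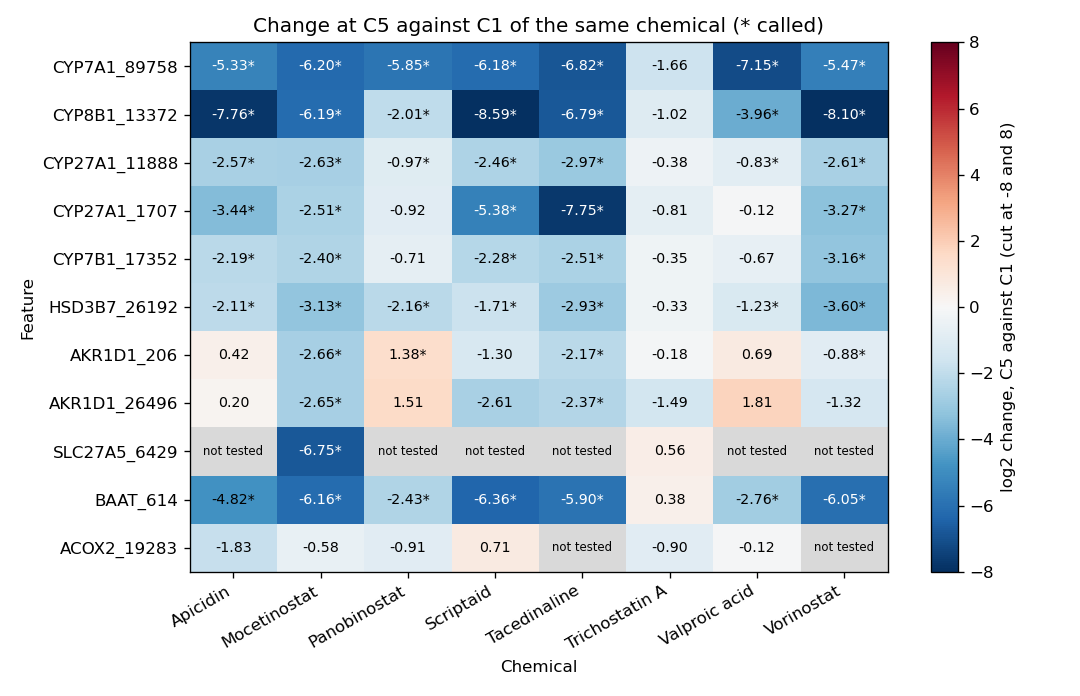
Log2 change from C1 to C5 of each member feature (rows) in each chemical (columns), from the edgeR fit of that chemical, with an asterisk where the change was called and grey cells where the feature was not tested. CYP7A1, CYP8B1, CYP27A1_11888, HSD3B7 and BAAT were called falling in 7 columns, trichostatin A had no call, and AKR1D1 holds changes of both signs.

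Most markers of hepatocytes fell with the pathway. Of 64 tests of the 8 markers at C5, 53 were called falling and 0 rising, where 13.4% and 11.6% of all tests were. Their summed level at C5 lay between 3074 CPM in tacedinaline and 30113 CPM in panobinostat over the libraries of the 7 chemicals. In trichostatin A it was 13892 to 57859 CPM at C1 and 37882 to 49031 CPM at C5. ALB, which encodes serum albumin, had log2 changes of -4.25 in tacedinaline and -1.21 in panobinostat, the ends of its range in the 7 chemicals. AHSG, the plasma protein fetuin-A, had log2 changes of -8.75 in tacedinaline and -3.80 in panobinostat at C5. TF, which encodes transferrin, was called falling in the same 7 chemicals. TTR was called falling in 4 and not in apicidin (-0.09), panobinostat (0.12) or valproic acid (-0.33). In lysates of whole cultures, fewer cells of a type and less RNA per cell cannot be told apart, and the part of the markers' change in the members' change was not tested.

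CYP7A1 fell in 7 of 8 chemicals, and it had the only falling call of a member at C2. In apicidin its level was 115, 80.6 and 72.4 CPM in the 3 libraries at C1 and 1.83, 0.977 and 3.73 CPM at C5. In mocetinostat it was 84.6, 66.1 and 87.2 CPM at C1 and 0.773, 1.54 and 0.606 CPM at C5. The groups did not overlap in either chemical, and every C5 library lay under 4 CPM.
In panobinostat the 3 libraries had 97.8, 121 and 73.3 CPM at C1 and 3.36, 1.45 and 0.274 CPM at C5. In scriptaid they had 73.4, 60.2 and 51.5 CPM at C1 and 0.840, 0.284 and 1.43 CPM at C5. Scriptaid and the chemicals that follow had at most 3 counts in each C5 library, close to the limit of what these depths resolve.
In tacedinaline the C1 libraries had 65.7, 61.6 and 34.6 CPM and the C5 libraries 0.495, 0.342 and 0.407 CPM. In valproic acid the C1 libraries had 77.3, 80.3 and 61.2 CPM and the C5 libraries 0.632, 0.237 and 0.564 CPM. In vorinostat the C1 libraries had 34.1, 65.5 and 51.0 CPM and the C5 libraries 2.45, 0.471 and 0.589 CPM. No C5 library of these 7 chemicals reached a C1 library of its own chemical.

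The log2 change of CYP7A1 at C5 was -5.33 (SE 0.50, edgeR adjusted p = 1e-07) in apicidin, -6.20 (SE 0.73) in mocetinostat, -5.85 (SE 0.51) in panobinostat and -6.18 (SE 0.80) in scriptaid. It was -6.82 (SE 0.59) in tacedinaline, -7.15 (SE 0.62) in valproic acid and -5.47 (SE 0.55) in vorinostat, and all 7 were called. These are changes of a fit per chemical, and folds read from the CPM, which share 1 scaling over all libraries, can differ slightly. In tacedinaline the summed counts fell from 428 to 3, a ratio of 122 after scaling (95% interval 41.4 to 593, exact binomial, counting error only).

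The fall of CYP7A1 was called at C2 in tacedinaline (-1.55, SE 0.37, edgeR adjusted p = 0.0351), at C3 in apicidin, mocetinostat, scriptaid, valproic acid and vorinostat, and at C4 in panobinostat. Its course in tacedinaline ran through 20.8, 20.7 and 13.6 CPM at C2, 4.502, 6.17 and 1.16 CPM at C3, and 0.777, 0.718 and 0.300 CPM at C4. In panobinostat the libraries had 68.5, 119 and 31.8 CPM at C2, 40.5 and 34.7 CPM at C3, and 9.63, 9.53 and 6.62 CPM at C4. In tacedinaline the libraries of C1, C2, C3 and C4 did not overlap, with each group below the one before, while in panobinostat C1 and C2 overlapped.

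Trichostatin A had 139.6, 152 and 93.6 CPM of CYP7A1 at C2, 127, 122 and 117 CPM at C3, 105 and 74.6 CPM at C4 and 25.9, 15.0 and 25.8 CPM at C5. The C5 libraries were thus below those of C2, C3 and C4, and above 1 of the 3 libraries at C1, replicate 3 with 1.79 CPM. The C5 against C1 change was -1.66 (SE 0.66, edgeR adjusted p = 0.47) with all libraries and -2.31 (edgeR adjusted p = 0.00197) without that library. The trend without it was -2.43 (edgeR adjusted p = 0.0479).

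**Figure D2:**
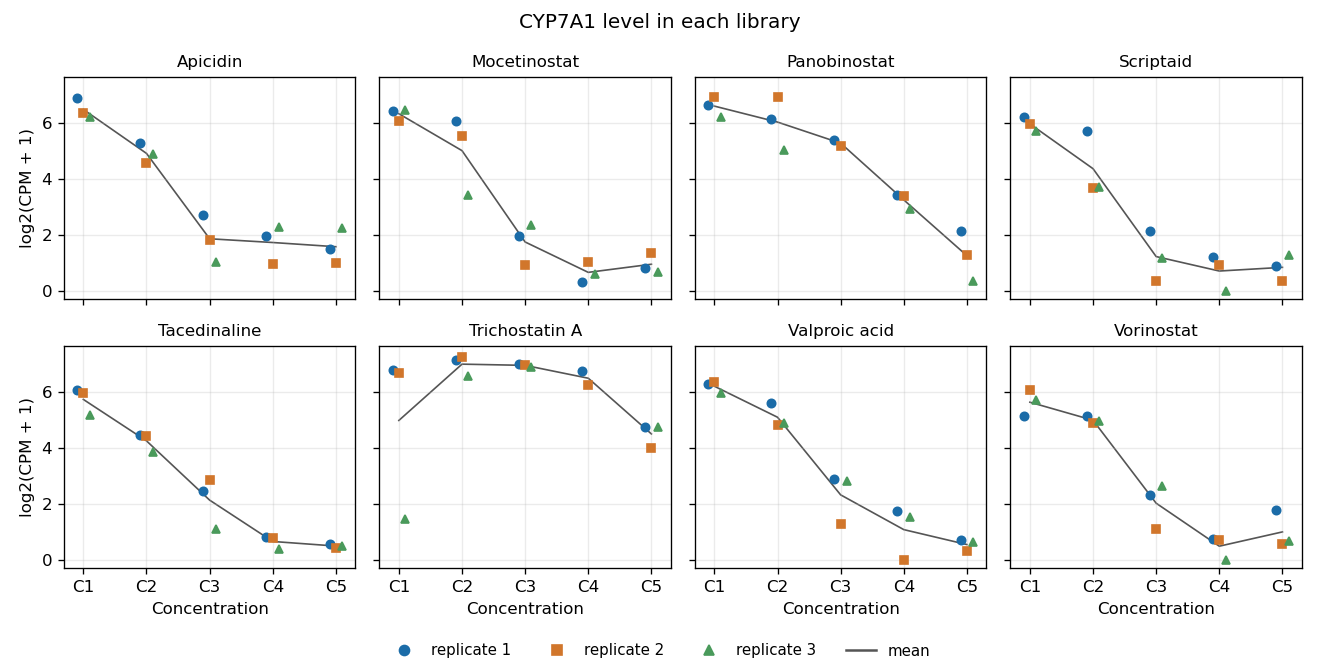
CYP7A1 level, log2(CPM + 1), in every library at C1 to C5 of each chemical, with a marker for each replicate and a line through the group means. The C5 points of 7 chemicals lie below every C1 point of their panel, and in trichostatin A 1 C1 library, replicate 3, lies far below the other 2.

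CYP8B1, the 12alpha-hydroxylase, also fell in 7 chemicals, from a lower count. Its C1 libraries held 3.08 to 9.85 CPM in apicidin, 14.5 to 18.6 CPM in mocetinostat, 8.40 to 23.3 CPM in scriptaid, 15.2 to 28.7 CPM in tacedinaline and 8.70 to 24.7 CPM in vorinostat. All 3 C5 libraries had 0 counts in apicidin, scriptaid and vorinostat. From C3 on CYP8B1 had at most 8 counts in a library of apicidin, mocetinostat, tacedinaline or valproic acid. It passed the filter there through C1 and C2, so the falling direction is not independent of the filter. Set against 3 counts per C5 library, the C1 mean of CYP8B1 was 8.96-fold higher in apicidin, 13.6-fold higher in scriptaid and 7.62-fold higher in vorinostat. The spread of the C1 libraries is not part of these folds.
In mocetinostat the summed counts went from 196 to 2, a ratio of 91.1 (95% interval 24.9 to 758, exact binomial, counting error only). In tacedinaline they went from 185 to 1, a ratio of 158 (interval 28.0 to 6274). The intervals are wide because the C5 counts are so few.
Valproic acid had 8.61, 9.46 and 16.0 CPM at C1 and 1.69, 0 and 0.282 CPM at C5 (log2 change -3.96, SE 0.77, edgeR adjusted p = 0.00135). Panobinostat had 11.7, 7.26 and 7.86 CPM at C1 and 1.96, 1.21 and 3.56 CPM at C5 (log2 change -2.01, SE 0.48, edgeR adjusted p = 0.00487). The panobinostat call was lost without replicate 1 (-1.69, edgeR adjusted p = 0.135). In trichostatin A the C5 change was -1.02 (SE 0.82, edgeR adjusted p = 0.737), without replicate 3 at C1 it was -1.13 (edgeR adjusted p = 0.852), and without replicate 3 of every concentration it was -3.01 (edgeR adjusted p = 0.0316).

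CYP27A1, which oxidises the sterol side chain and opens the alternative route, fell in 7 chemicals by its deeper feature and in 5 by the other. CYP27A1_11888 had counts in all 118 libraries. Its level in tacedinaline was 106, 118 and 74.2 CPM at C1 and 8.90, 16.4 and 9.77 CPM at C5. In panobinostat it was 138, 143 and 132 CPM at C1 and 76.4, 63.3 and 73.7 CPM at C5. The libraries of C1 and C5 did not overlap in either chemical, and the distance between them was the larger in tacedinaline.
The log2 change of CYP27A1_11888 at C5 was -2.97 (SE 0.26, edgeR adjusted p = 1.58e-12) in tacedinaline, -2.63 in mocetinostat, -2.61 in vorinostat, -2.57 in apicidin and -2.46 in scriptaid. It was -0.97 (SE 0.20, edgeR adjusted p = 0.00168) in panobinostat, -0.83 (SE 0.18, edgeR adjusted p = 0.00366) in valproic acid and -0.38 (SE 0.17, edgeR adjusted p = 0.508) in trichostatin A, where it was -0.43 (edgeR adjusted p = 0.769) without replicate 3 at C1. Without replicate 1 the panobinostat and valproic acid values were -1.03 and -0.77, with edgeR adjusted p-values of 0.0502 and 0.163.

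CYP27A1_1707 counted far fewer reads, at most 68 in a library. It had 15.2, 10.1 and 4.64 CPM at C1 of tacedinaline and 0 counts in all 3 libraries at C5. The C1 mean was 8.00-fold the level of 3 counts per C5 library. In scriptaid the summed counts went from 76 to 1 (ratio 56.1, 95% interval 9.77 to 2246, exact binomial, counting error only), and in vorinostat from 61 to 3 (ratio 11.4, interval 3.73 to 56.9). It was also called falling in apicidin (-3.44, SE 0.82, edgeR adjusted p = 0.00283) and mocetinostat (-2.51, SE 0.88, edgeR adjusted p = 0.0405).
The mocetinostat call was lost without each replicate in turn, with edgeR adjusted p-values of 0.0528, 0.172 and 0.259 for replicates 1, 2 and 3, and in the model that held the batch as a block (0.0656). The apicidin and vorinostat calls were lost without replicate 2 (-2.06 and -2.43, edgeR adjusted p-values 0.109 and 0.103). In panobinostat and valproic acid, where CYP27A1_11888 fell, the C5 changes of CYP27A1_1707 were -0.92 (SE 0.49, edgeR adjusted p = 0.214) and -0.12 (SE 0.49, edgeR adjusted p = 0.919). In trichostatin A it had -0.81 (edgeR adjusted p = 0.507) with all libraries and -0.43 (edgeR adjusted p = 0.92) without replicate 3 at C1.

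**Figure D3:**
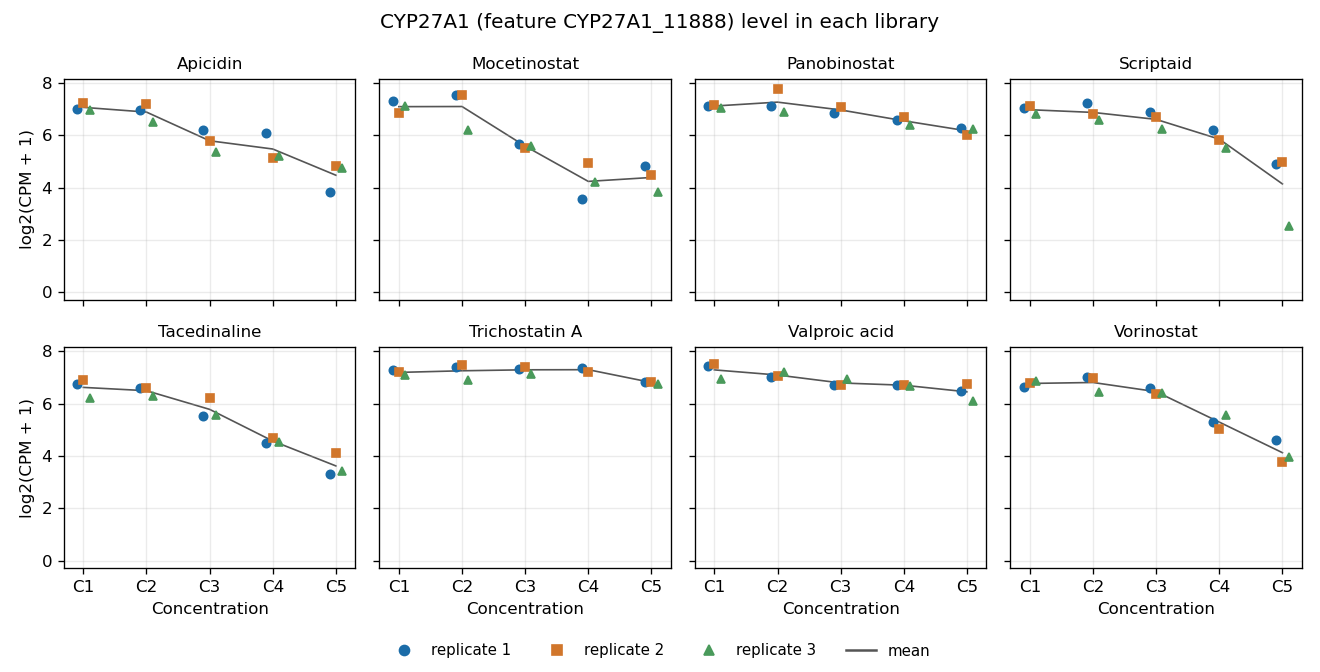
CYP27A1 level by its deeper feature CYP27A1_11888, log2(CPM + 1), in every library at C1 to C5 of each chemical, with a marker for each replicate and a line through the group means. The C1 to C5 decline is smallest in panobinostat, valproic acid and trichostatin A, and replicate 3 at C5 of scriptaid lies lowest of all libraries.

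CYP7B1, which adds the 7alpha-hydroxyl group to oxysterols, fell in 5 chemicals. In vorinostat its libraries had 35.7, 35.5 and 22.7 CPM at C1 and 0.816, 0 and 8.84 CPM at C5 (log2 change -3.16, SE 0.58, edgeR adjusted p = 2.71e-05). In tacedinaline they had 34.5, 34.6 and 25.6 CPM at C1 and 6.92, 4.45 and 4.48 CPM at C5, and changed by -2.51 (SE 0.39). Groups did not overlap, although the C5 libraries of vorinostat spread widely.
The changes in mocetinostat (-2.40), scriptaid (-2.28) and apicidin (-2.19) were called as well. The call in apicidin was lost without replicate 3 (-2.25, edgeR adjusted p = 0.0686) and that in scriptaid without replicate 1 (-2.01, edgeR adjusted p = 0.0837). In panobinostat the C5 change was -0.71 (edgeR adjusted p = 0.103), in valproic acid -0.67 (edgeR adjusted p = 0.181) and in trichostatin A -0.35 (edgeR adjusted p = 0.767), or -0.050 (edgeR adjusted p = 0.993) without replicate 3 at C1.

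HSD3B7, the 3beta-hydroxysteroid dehydrogenase of the pathway, fell in 7 chemicals. Its level in vorinostat was 36.3, 31.5 and 40.4 CPM at C1 and 0, 3.77 and 3.54 CPM at C5. In panobinostat it was 39.7, 30.8 and 43.7 CPM at C1 and 6.16, 7.52 and 12.1 CPM at C5. In both chemicals every C5 library was below every C1 library.
The log2 change at C5 was -3.60 (SE 0.53, edgeR adjusted p = 7.05e-07) in vorinostat, -3.13 in mocetinostat, -2.93 in tacedinaline, -2.16 in panobinostat, -2.11 in apicidin, -1.71 in scriptaid and -1.23 in valproic acid. Scriptaid lost its call without replicate 2 (-1.65, edgeR adjusted p = 0.107) and valproic acid without replicate 1 (-0.94, edgeR adjusted p = 0.204). In trichostatin A the C5 libraries held 20.3, 24.7 and 35.2 CPM against 46.7, 40.7 and 13.4 CPM at C1, and the change was -0.33 (SE 0.36, edgeR adjusted p = 0.836). Without replicate 3 at C1, the 13.4 CPM, it was -0.44 (SE 0.34, edgeR adjusted p = 0.847).

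AKR1D1, the 5beta-reductase that bends the sterol ring, was the only member with called changes of both signs at C5. AKR1D1_206 fell in mocetinostat from 111, 113 and 105 CPM at C1 to 23.2, 13.6 and 12.1 CPM at C5 (log2 change -2.66, SE 0.30, edgeR adjusted p = 5.12e-06). AKR1D1_26496 fell with it, from 37.2, 44.9 and 35.0 CPM to 3.09, 11.0 and 3.33 CPM (-2.65, SE 0.81, edgeR adjusted p = 0.02), a call that was lost without replicate 2 (edgeR adjusted p = 0.0909). Both features thus declined in mocetinostat with groups that did not overlap.
In tacedinaline AKR1D1_206 first rose, from 77.5, 60.7 and 49.8 CPM at C1 to 96.0, 119 and 161 CPM at C2 (1.03, SE 0.23, edgeR adjusted p = 0.025). At C5 it stood at 12.9, 9.93 and 16.3 CPM (-2.17, SE 0.27, edgeR adjusted p = 1.13e-08). This was the only rising call of a member at C2, and AKR1D1_26496 had a C2 change of 1.21 (SE 0.33, edgeR adjusted p = 0.0941) in the same libraries and a called C5 change of -2.37.

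In panobinostat AKR1D1_206 rose from 24.3, 5.55 and 6.29 CPM at C1 to 26.3, 46.3 and 23.6 CPM at C5 (1.381, SE 0.48, edgeR adjusted p = 0.0495). The C1 libraries spread widely, and replicate 1 at C1 lay above 1 of the 3 C5 libraries. The call was lost without replicate 2 (0.67, edgeR adjusted p = 0.395) and without replicate 3 (1.27, edgeR adjusted p = 0.151).
By trend both features rose in panobinostat, AKR1D1_206 by 1.57 (SE 0.41, edgeR adjusted p = 0.00765) and AKR1D1_26496 by 1.98 (SE 0.50, edgeR adjusted p = 0.00698). These trend calls were lost as well without replicate 2 (edgeR adjusted p-values 0.125 and 0.0612) and without replicate 3 (0.0625 and 0.0791). The C5 change of AKR1D1_26496 there was 1.51 (SE 0.55, edgeR adjusted p = 0.0611), and with the batch as a block it was called (1.72, edgeR adjusted p = 0.0277).

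Vorinostat moved AKR1D1_206 up at C4 and down at C5. Its libraries had 20.1, 21.1 and 19.3 CPM at C1, 30.2, 39.1 and 43.2 CPM at C4 (0.95, SE 0.28, edgeR adjusted p = 0.00743) and 13.1, 12.2 and 5.31 CPM at C5 (-0.88, SE 0.32, edgeR adjusted p = 0.0214). Neither C4 nor C5 overlapped C1, yet the C5 call was lost without replicate 2 (edgeR adjusted p = 0.0623) and without replicate 3 (0.182). AKR1D1_26496 was called in vorinostat neither at C4 nor at C5. It had 3.35, 15.4 and 7.46 CPM at C1, 7.55, 4.60 and 22.6 CPM at C4 and 6.53, 0.941 and 3.54 CPM at C5.
In scriptaid 1 library decided the course of AKR1D1_206, since replicate 3 at C4 had 104 CPM where replicates 1 and 2 had 9.94 and 14.7. The C5 change of AKR1D1_206 in scriptaid was -1.30 (SE 0.69, edgeR adjusted p = 0.17) with all replicates and -1.48 (edgeR adjusted p = 0.0256) without replicate 3. AKR1D1_26496 had a C5 change of -2.61 (SE 0.98, edgeR adjusted p = 0.0521) in scriptaid, and with the batch as a block it was called (-3.01, edgeR adjusted p = 0.00967).
Apicidin had 44.7, 57.7 and 49.0 CPM of AKR1D1_206 at C5 against 41.7, 43.8 and 28.3 CPM at C1 (0.42, SE 0.29, edgeR adjusted p = 0.285). Valproic acid had a C5 change of 0.69 (SE 0.35, edgeR adjusted p = 0.238) in AKR1D1_206 and 1.81 (SE 0.63, edgeR adjusted p = 0.0687) in AKR1D1_26496. Trichostatin A had changes of -0.18 and -1.49, with edgeR adjusted p-values of 0.957 and 0.482, and without replicate 3 at C1 -0.67 and -1.43 (edgeR adjusted p-values 0.903 and 0.81).

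AKR1D1 also differed between chemicals at C1, the reference of the other tests. The group means of AKR1D1_206 at C1 stood in the order mocetinostat, tacedinaline, apicidin, scriptaid, vorinostat, panobinostat, trichostatin A and valproic acid. Scriptaid, with 33.4, 20.4 and 20.4 CPM, overlapped apicidin and vorinostat. Panobinostat, with 24.3 CPM in replicate 1, overlapped scriptaid and vorinostat. The last 3 overlapped each other, with 14.0, 10.8 and 6.86 CPM in trichostatin A and 12.2, 13.4 and 5.83 CPM in valproic acid.
A test of the C1 level among the 8 chemicals, added after these values were seen, gave an edgeR adjusted p of 6.83e-08 for AKR1D1_206 and 9.72e-06 for AKR1D1_26496. Within plate H the values were 6.63e-05 and 0.000303, and within plate E 0.000135 and 0.0201. Of 11 member features tested, these 2 were under 0.05 in each of the 3 tests, where 6.36%, 1.16% and 1.83% of all features were. Without replicate 3 of trichostatin A 6 members were under 0.05 in the test of 8 chemicals, where 11.5% of all features were, and within plate H again 2, where 4% were. The wells of C1 differ in chemical, dose and position, and these cannot be told apart.

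**Figure D4:**
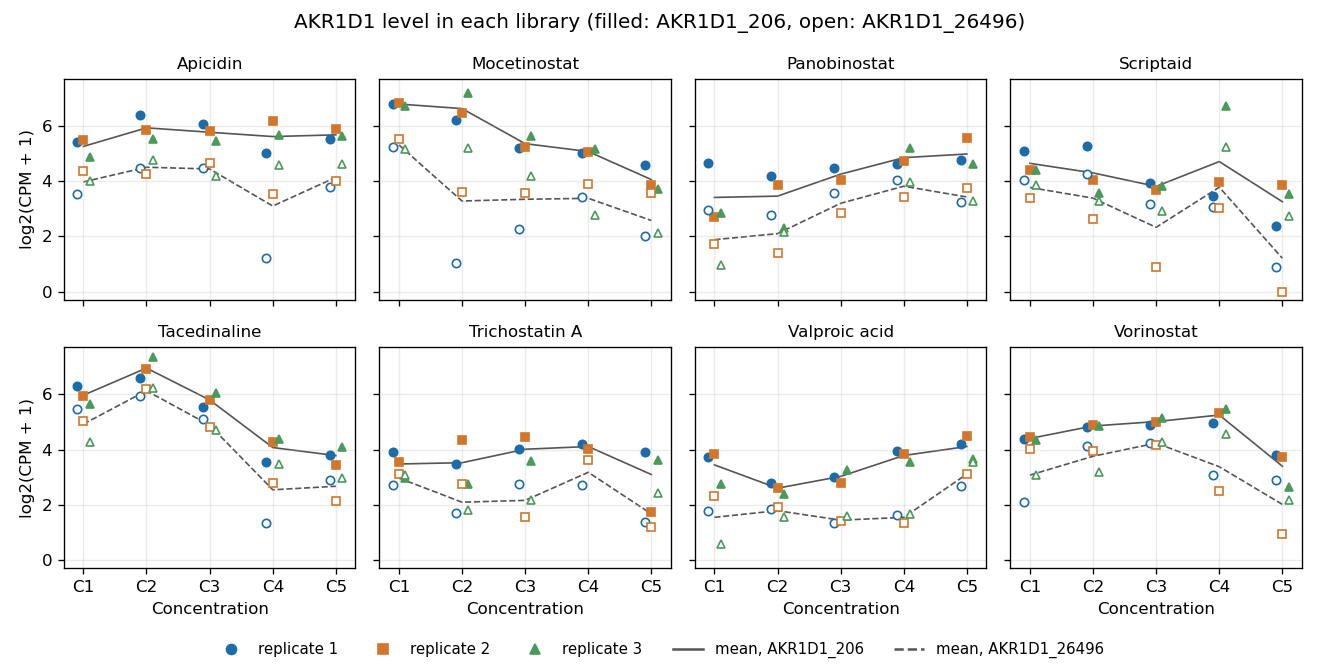
AKR1D1 level, log2(CPM + 1), in every library, with AKR1D1_206 as filled and AKR1D1_26496 as open markers and lines through the group means. The level starts highest in mocetinostat and falls, rises and then falls in tacedinaline, and ends above its C1 mean in apicidin, panobinostat and valproic acid.

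The 2 peroxisomal enzymes were near the limit of detection. AMACR, a racemase that turns the side chain to the form that is oxidised, had 72 reads in all, with 0 in 89 of 118 libraries and at most 12 in a library, and was tested in no chemical. Across libraries its reads allow no statement on a change. ACOX2, the acyl-CoA oxidase that acts on the side chain, had 1418 reads in all and was tested in 6 chemicals.
In apicidin ACOX2 stood at 8.59, 8.77 and 5.17 CPM at C1, 0.527, 2.09 and 0.272 CPM at C4 and 1.31, 4.40 and 0.497 CPM at C5. It fell by trend (-2.67, SE 0.74, edgeR adjusted p = 0.00596) and at C4 (-2.87, SE 0.84, edgeR adjusted p = 0.017). At C5 the change was -1.83 (SE 0.78, edgeR adjusted p = 0.0822), and with the batch as a block it was called (-2.13, edgeR adjusted p = 0.0205). In the other 5 chemicals ACOX2 was called neither at C5 nor by trend, with C5 changes between -0.91 and 0.71. Without replicate 3 at C1 that of trichostatin A was -1.21 (edgeR adjusted p = 0.859) in place of -0.90.

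Of the enzymes that act last, SLC27A5 was measured thinly and BAAT deeply. SLC27A5 had 521 reads in all and passed the filter in mocetinostat and trichostatin A. In mocetinostat it had 12, 16 and 15 counts at C1 and 0 counts in each C5 library (edgeR adjusted p = 0.00494, and 0.0501 without replicate 3). The C1 mean was 4.42-fold the level of 3 counts per C5 library. SLC27A5 had at most 5 counts in a library of mocetinostat from C3 on and passed the filter there through C1 and C2. The falling direction is therefore not independent of the filter. In trichostatin A its C5 change was 0.56 (SE 1.15, edgeR adjusted p = 0.93), and without replicate 3 at C1 the sign turned (-1.66, SE 1.62, edgeR adjusted p = 0.88).

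BAAT had the most reads of the members, and it fell in 7 chemicals. In mocetinostat the libraries had 1589, 1290.5 and 1471 CPM at C1 and 20.9, 22.1 and 14.2 CPM at C5. In scriptaid they had 1365, 1243 and 1418 CPM at C1 and 12.6, 14.2 and 20.02 CPM at C5. Replicates lay close together at both ends.
In vorinostat the values were 1135, 1399.9 and 1151 CPM at C1 and 19.6, 15.5 and 17.1 CPM at C5. In tacedinaline they were 1103, 984 and 835 CPM at C1 and 18.3, 16.4 and 11.8 CPM at C5. In apicidin they were 1981, 1722 and 1719 CPM at C1 and 63.0, 56.0 and 71.1 CPM at C5, above the C5 libraries of the 4 chemicals before.
In panobinostat the libraries had 1516, 1234 and 1208 CPM at C1 and 303.2, 220.4 and 218 CPM at C5. In valproic acid they had 1224, 1239 and 1384 CPM at C1 and 209, 196 and 159 CPM at C5. These 2 chemicals kept BAAT higher at C5 than the other 5 that lowered it, at concentrations that are not matched.

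The log2 change of BAAT at C5 was -6.36 (SE 0.51, edgeR adjusted p = 1.86e-07) in scriptaid, -6.16 (SE 0.34) in mocetinostat, -6.05 (SE 0.31) in vorinostat, -5.90 (SE 0.21) in tacedinaline and -4.82 (SE 0.19) in apicidin. It was -2.76 (SE 0.16) in valproic acid and -2.43 (SE 0.20, edgeR adjusted p = 3.72e-08) in panobinostat. The fall was called from C3 on in apicidin, mocetinostat, tacedinaline, valproic acid and vorinostat, from C4 in scriptaid and at C5 in panobinostat. In trichostatin A the C5 libraries had 1431, 1029 and 1575 CPM, within the range of replicates 1 and 2 at C1 for 1 of the 3, and the change was 0.38 (SE 0.37, edgeR adjusted p = 0.802). Without replicate 3 at C1 it was 0.016 (SE 0.21, edgeR adjusted p = 0.995).

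**Figure D5:**
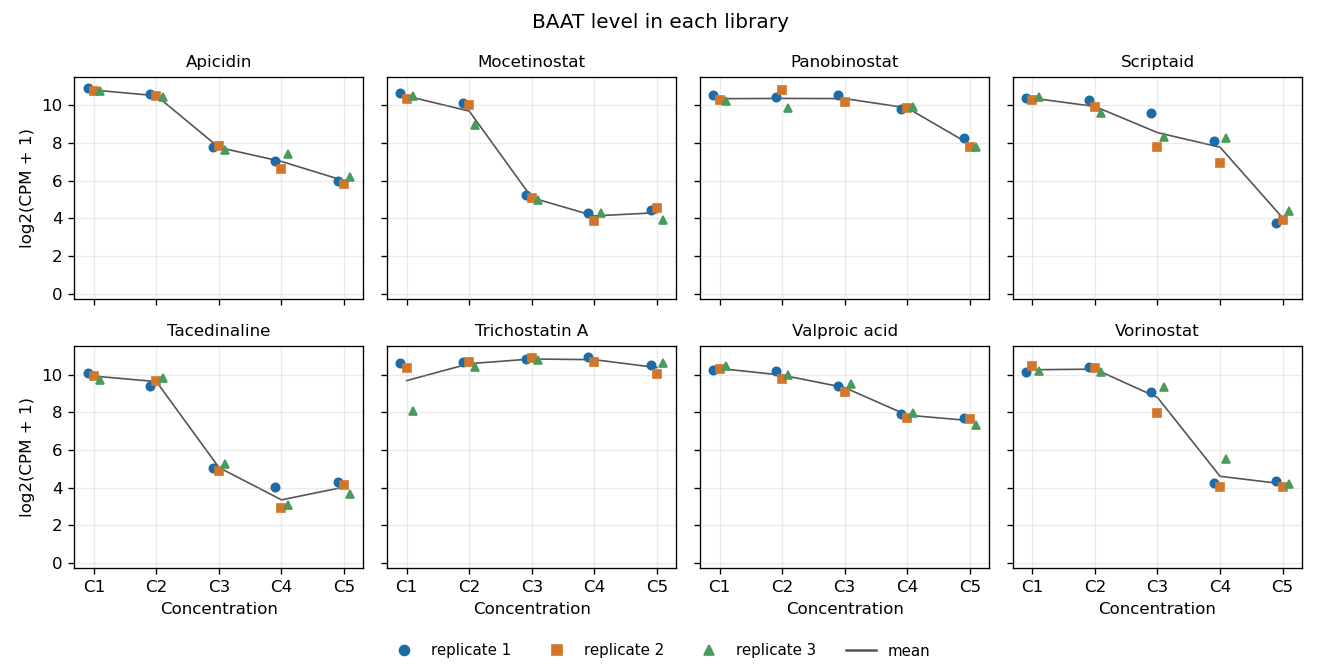
BAAT level, log2(CPM + 1), in every library at C1 to C5 of each chemical, with a marker for each replicate and a line through the group means. BAAT drops steeply between C2 and C3 in apicidin, mocetinostat and tacedinaline, between C3 and C4 in vorinostat and between C4 and C5 in scriptaid. A smaller drop lies between C4 and C5 in panobinostat. In trichostatin A all libraries but replicate 3 at C1 lie at 1029 CPM or above.

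Whether the change from C1 to C5 differed among chemicals was tested for each feature in 1 model of all libraries. Among the 7 chemicals without trichostatin A, 8 of 11 member features differed at an edgeR adjusted p under 0.05, where 21.4% of all features did. Leaving out replicate 1 gave 5, replicate 2 gave 7 and replicate 3 gave 6, and HSD3B7 was lost in each case. With trichostatin A among 8 chemicals 9 of 11 differed, where 30.3% of all features did. BAAT had the smallest edgeR adjusted p among the 7 (3.7e-16), with AKR1D1_206 next (3.07e-08).
CYP7A1 changed by between -7.15 and -5.33 in the 7 chemicals, and no difference among them was detected (edgeR adjusted p = 0.851). At C5 its counts were at most 3 in every library of scriptaid, tacedinaline, valproic acid and vorinostat, so larger falls there could not be resolved and this test says little about equal change. With trichostatin A included the value was 5.48e-06. The same test gave an edgeR adjusted p of 0.781 for ACOX2 and 0.285 for SLC27A5, the tested features with the fewest reads.

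The order in which members first fell was also recorded. CYP7A1 was called falling at C2 or C3 in 6 of 7 chemicals, BAAT at C3 in 5 and CYP8B1 at C3 in 4. CYP27A1_11888 and HSD3B7 were first called at C3 in 3 chemicals each and at C4 or C5 in the other 4. CYP7B1 was first called at C3 in 1 chemical, at C4 in 2 and at C5 in 2. A first call depends on depth as well as on the size of the change, so this order describes calls.
Across the 40 group means, centred within each chemical, BAAT and HSD3B7 had a Pearson r of 0.954 and CYP8B1 and BAAT of 0.948. The lowest value, 0.257, was that of CYP7A1 and AKR1D1_206. The group means share libraries, depth and concentration steps, and the values are a description.

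Other enzymes of bile acid synthesis moved less evenly. The list held CYP39A1, CYP46A1, CH25H, AKR1C4, HSD17B4, SCP2, ABCD3, SLC27A2 and ACOT8, 10 features with 69 tests. At C5 18 of these were called falling and 4 rising, where 13.4% and 11.6% of all tests were. The median C5 change of the list lay between -1.32 and -0.03 in the 7 chemicals.
SCP2 encodes a sterol carrier with a peroxisomal thiolase form. Its feature SCP2_27826 fell in 7 chemicals, with -3.62 (SE 0.32) in mocetinostat and -1.28 (SE 0.22) in valproic acid at the ends of the range. SCP2_6152 fell in 5.
Another 2 features rose against the list. CYP46A1, a cholesterol 24-hydroxylase best known from neurons, was tested in 5 chemicals and rose at C5 in mocetinostat (2.61, SE 0.85, edgeR adjusted p = 0.0276) and vorinostat (4.33, SE 1.21, edgeR adjusted p = 0.00313), from C1 means of at most 1.30 CPM. With such levels at C1 it passed the filter through higher concentrations, so the rising direction is not independent of the filter. ABCD3, a peroxisomal membrane transporter, rose at C5 in vorinostat (1.13, SE 0.18) and scriptaid (0.91, SE 0.33, edgeR adjusted p = 0.0442). HSD17B4 and ACOT8, which act in peroxisomes beside ACOX2, were called in no chemical at C5.

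The list of regulators held NR1H4, NR0B2, NR5A2, HNF4A, FGFR4, KLB, FGF19, PPARGC1A and MAFG. Of 64 tests at C5, 25 were called falling and 1 rising (FGFR4_91339 in tacedinaline, 1.37), where 13.4% and 11.6% of all tests were. By trend 22 fell and 3 rose, where 12.7% of all tests fell and 12.7% rose. The median C5 change of the list lay between -1.83 and -0.44 in the 7 chemicals, against -0.06 in trichostatin A.
NR5A2 encodes LRH-1, a nuclear receptor that activates CYP7A1 and CYP8B1, and it fell at C5 in 6 chemicals, from -2.58 (SE 0.27) in tacedinaline to -0.85 (SE 0.22) in panobinostat. HNF4A, a main transcription factor of hepatocytes, fell in the same 6, from -4.59 (SE 0.71) in mocetinostat to -1.74 (SE 0.44) in panobinostat. In valproic acid, where 5 members fell, NR5A2 (-0.47, edgeR adjusted p = 0.181) and HNF4A (-1.19, edgeR adjusted p = 0.0738) were not called. A missing call is no proof of an unchanged level, and a link between regulators and members was not tested.
NR1H4 encodes FXR, the bile acid receptor that lowers bile acid synthesis, and it too fell in those 6 chemicals, from -6.93 (SE 0.80) in vorinostat to -1.33 (SE 0.32) in panobinostat. NR0B2, the repressor SHP that FXR induces, was tested in mocetinostat alone and fell there (-6.78, SE 1.48, edgeR adjusted p = 0.00592). With a fall of this size it passed the filter through low concentrations, so the falling direction is not independent of the filter. FGF19 and CH25H passed the filter in no chemical. PPARGC1A, a coactivator, was called falling at C5 in mocetinostat, scriptaid and tacedinaline and rising by trend in apicidin (0.75) and vorinostat (1.12).

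Markers of other cells did not move as one. Of the biliary and progenitor markers (KRT7, KRT19, SOX9, EPCAM, SPP1 and CFTR), 11 of 33 tests were called rising at C5 and 0 falling. Of all tests 11.6% were called rising and 13.4% falling. The summed level of these markers was 63.7 to 161 CPM at C1 and 79.1 to 225 CPM at C5 in the libraries of the 7 chemicals. SPP1, a secreted phosphoprotein, and SOX9, a transcription factor of bile duct cells, each rose in 5 chemicals. KRT19 was called rising once, and the defining markers EPCAM and CFTR had group means of at most 0.271 and 0 CPM at C5.
Of the stromal markers (COL1A1, COL1A2, COL3A1, VIM, ACTA2 and THY1), 14 of 26 tests were called falling and 6 rising at C5, against the same shares of all tests. Their summed level was 43.1 to 74.8 CPM at C1 and 23.5 to 55.5 CPM at C5. COL3A1_28516 and ACTA2 fell in 7 chemicals and COL1A1 rose in 6. THY1 was at or near 0, with group means of at most 0.0876 CPM at C5. The part of either set in the members' changes was not tested.

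Among the 5 features whose course was most like that of the members were ST6GAL1_20820, AGXT_26064, HAO1_28734 and APOC3_15165. Their Pearson r with the mean of the 9 member features tested in all chemicals was 0.983, 0.983, 0.982 and 0.981 over 40 group means centred within each chemical, among 11279 other features. AGXT and HAO1 encode peroxisomal enzymes of glyoxylate metabolism, APOC3 an apolipoprotein and ST6GAL1 a sialyltransferase. Without the centring AGXT_26064 ranked 1 and the others named here between 9 and 72.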

How the data were processed

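The authors deposited raw read counts per TempO-Seq probe, whole numbers without normalisation. The submitters' processing notes name bcl2fastq 2.20.422, fastp 0.23.2, STAR 2.7.10b and DESeq2 1.38.0. One of 22069 rows lacked values in 88 libraries and was left out. Each chemical was fitted in R 4.3.3 with edgeR 4.0.16 (filterByExpr at its minimum count of 10, TMM scaling, quasi-likelihood F tests), C2 to C5 against C1 and a slope on log2 concentration, expressed as the fitted C1 to C5 change. Adjustment was by Benjamini-Hochberg over all features tested, and a call needed an adjusted p under 0.05 and a fold of at least 1.5. Standard errors were taken from the log2 change and the square root of its F. The difference of the C5 change among chemicals was tested in 1 model of 40 groups. A fold against a group at 0 sets the mean at C1 against 3 counts per C5 library and leaves out the spread and counting error at C1. Like the exact intervals, it allows for counting error at most, because the reads carry no molecular identifiers and several can stem from 1 molecule. Likeness used log2 CPM with a prior count of 2.

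The members and lists were chosen with earlier results of these data known. Named were all member features, of each list the 3 features with the most trend calls and those called against the list's majority in 2 or more chemicals, and those of the 5 features most like the members that are reported here. One gene of the regulator list and 1 of those 5 features are not reported here, and the counts of that list leave the gene out. Single features named beyond this rule (FGFR4_91339, NR0B2, HSD17B4, ACOT8, THY1 and others given as low or uncalled) were chosen after their values were seen. Libraries were grouped by their labels. Replicate numbers are HepaRG batches and pair the samples by the labels, and deviations from group means had a median r of 0.0346 in 232 pairs of the same batch and -0.0155 in 464 of different batches. Alternatives were RLE size factors, library totals, no filter, DESeq2 1.42.0, the batch as a replicate block, each replicate left out, another slope scale, other fold minimums and, added after seeing the data, subsets of the C1 test. On simulated counts for mocetinostat (12181 features), 22.5% of features changed by 1 on the log2 scale were called at C5, 95% of those changed by 2 and 100% of those changed by 4. The changed features lay above a minimum expected count and had a fixed spread and a log-linear course. These shares are therefore no measure for members with few counts or a wider spread. No 2 libraries had identical counts. The paper given with the series describes another experiment and was used for style only.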

Additional observations from a re-analysis of the deposited data

Results flagged for a closer look

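The C1 to C5 change of 8 member features differed among the 7 chemicals without trichostatin A, by the test of that difference in 1 edgeR model of all libraries. The edgeR adjusted p was 3.7e-16 for BAAT_614, 3.07e-08 for AKR1D1_206, 1.05e-06 for CYP27A1_11888, 4.53e-06 for CYP27A1_1707 and 1.49e-05 for AKR1D1_26496. It was 0.00229 for CYP8B1_13372, 0.00387 for CYP7B1_17352 and 0.0133 for HSD3B7_26192. Without replicate 1 the differences of CYP8B1_13372, CYP7B1_17352 and HSD3B7_26192 were lost (edgeR adjusted p-values 0.0873, 0.26 and 0.0883), without replicate 2 that of HSD3B7_26192 (0.298), and without replicate 3 those of CYP8B1_13372 (0.0723) and HSD3B7_26192 (0.053). The concentrations of the chemicals are not matched, so a difference in dose and a difference in chemical cannot be told apart. For AKR1D1_206 and AKR1D1_26496 the C1 level itself differed among the 8 chemicals (edgeR adjusted p-values 6.83e-08 and 9.72e-06). The part of this in the difference of their changes was not tested.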

How the results depend on the processing

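Of 1380 values of single member features under the alternatives, 1316 kept their side of the threshold, 35 lost the call, 29 gained a call and 0 reversed a call. Values without a call could change sign. That of SLC27A5 in trichostatin A at C5 went from 0.56 to -1.66 without replicate 3 at C1. Counts of member calls kept within 1.5 times of those reported, with these exceptions. For trichostatin A at C5, 1 feature was called without a filter on low counts and 1 without replicate 3 at C1, and 0 to 2 with each replicate left out. Its trend gave 1 call without replicate 3 at C1. At C2, summed over chemicals, 4 calls were made without a filter and 0 to 2 with each replicate left out, and at C3 15 to 23, the last without replicate 3 of trichostatin A at C1 alone. The scriptaid trend gave 2 to 5 calls and valproic acid at C5 3 to 5 with each replicate left out. The number of members that differed among 7 chemicals was 5 to 7 with each replicate left out. Members whose C1 level differed numbered 6 without replicate 3 of trichostatin A. With the replicate block the C5 counts of calls in either direction were 8 in apicidin, 9 in mocetinostat, 7 in panobinostat, 8 in scriptaid and 9 in tacedinaline. The 7 in panobinostat include the rises of both AKR1D1 features. The block changed no call other than those named in the text. The causes were not tested. Depth limits AMACR, SLC27A5 and ACOX2 most, and C5 of vorinostat had the lowest mean total of any group.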
